A study of Mus musculus with 2 samples.

Results

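Cortical projection neuron genes are represented here by 9 genes that were listed by name: the identity and layer factors Tbr1, Neurod2, Neurod6, Fezf2, Bcl11b and Cux2, and the maturation genes Nrgn, Itpka and Camk2a. The list was drawn up with the differences below already known, so those differences describe the genes and test nothing. All 9 were found by gene name on the array, where 15 probes measure them, and all 15 probes had signal well above background on both arrays. They belong to 23918 genes measured on both arrays by 36717 probes. The study compared total brain RNA of 1 GPHR F/F;Nes mouse sample with that of 1 GPHR F/F littermate control on 1-colour Agilent arrays, 1 array per genotype. Both samples came from strain C57BL/6J at postnatal day 10, and both carry the GPHR F/F alleles. The labels do not say what Nes stands for, which cells it acts in, or whether RNA of several animals was pooled.

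Projection neurons are the excitatory, glutamate-releasing neurons of the cerebral cortex that send axons to other cortical areas, the thalamus, the brain stem or the spinal cord. Their layer and target are set before and around birth by transcription factors that restrain each other, whereas genes of dendritic spines and calcium signalling rise over the first postnatal weeks as synapses form. GPHR (Golgi pH regulator), the product of Gpr89, conducts anions across the membrane of the Golgi, the compartment through which receptors and adhesion proteins of the synapse pass.

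The data show a split within the list. The 6 identity and layer factors had log2 differences, taken as GPHR F/F;Nes minus the control, between -0.14 and 0.68, with a median of -0.00. The 3 maturation genes were at -1.81 for Itpka, -1.05 for Nrgn and -0.32 for Camk2a, with a median of -1.05. None of the factors and 2 of the maturation genes were at least 2-fold lower, and no member gene was at least 2-fold higher. Over all measured genes, 1.37% were at least 2-fold lower and 7.94% at least 2-fold higher. At 1.5-fold, 2 members were lower (5.67% of all genes) and 1 was higher (18.1%), and at 3-fold, 1 was lower (0.251%) and 0 higher (2.29%). Relative to 0, 6 members lay below (43% of all genes) and 3 above (57%). Of the 15 member probes, 2 were at least 2-fold lower (1.45% of all probes) and 1 at least 2-fold higher (7.11%). Because the members were chosen from this same contrast, no more is read from these counts.

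Each difference is on the log2 scale after the processed signal of each array was set to its own 75th percentile, which was 173 units in GPHR F/F;Nes and 259.5 units in the control. "Higher" and "lower" are therefore relative to that percentile. The ± values combine the scanner software's error estimates of both arrays. For bright probes they are set almost wholly by a fixed proportional error that the software assumes, and they hold nothing of the spread between animals. For a gene with several probes, the probe errors are combined as if they were independent. The ± of a gene therefore shrinks as its probes grow in number, leaves out their disagreement, and is not comparable between genes with different numbers of probes. Since each genotype has 1 array, the differences have no replicate check, and the genotypes were not tested against each other. In whole-brain RNA, fewer cells of a type and less RNA per cell cannot be told apart. Gpr89 itself had a signal of 20.04 units in GPHR F/F;Nes and 43.3 units in the control, a log2 difference of -0.53 ± 0.22. The labels do not say which part of the gene is deleted, so its probe may lie outside that part. Xist, the RNA of the inactive X chromosome, passed the background limit only on the GPHR F/F;Nes array, at least 55.8-fold higher. Conversely, Ddx3y, Eif2s3y and Uty of the Y chromosome passed it only on the control array, with 1 Eif2s3y probe at least 93.7-fold higher there. That is the pattern of female RNA in GPHR F/F;Nes and male RNA in the control. Both samples thus appear to differ in sex as well as in genotype. Sex and genotype cannot be told apart for any difference given here.

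Probes behind the Nrgn value and the least settled member values are shown first, since a value on an array is that of its probe. Only the first 30 of the 60 bases of each are given, with nothing marked. Itpka and Nrgn each rest on 1 probe, whereas both Tbr1 and Bcl11b have a brighter and a dimmer probe that differed from each other. Coordinates are those of the array files on mm9.
Nrgn, chr9:37352694-37352753, minus strand: agccaagtccgtgccctttttagctcttca
Tbr1 brighter probe, chr2:61652093-61652152, plus strand: ccactgagaatcgttttgttttctgctcgt
Tbr1 dimmer probe, chr2:61642556-61642615, plus strand: agatcaaaagtgagccttttctgattgctg
Bcl11b brighter probe, chr12:109153847-109153906, minus strand: acatgtgagtactgcggcaaggtcttcaag
Bcl11b dimmer probe, chr12:109241744-109241803, minus strand: cctaccagaccccgaaagaaaagtgtcaga
Whether these probes lie in coding sequence, untranslated regions or introns was not analysed here. Over the 15 member probes the GC content was between 35% and 55%. The Itpka probe stood at 43.3% and the Nrgn probe at 48.3%, both inside the range of the probes of the factors.

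Tbr1 encodes a T-box transcription factor of early-born neurons of the deep layers and the subplate, including those that project to the thalamus. Its brighter probe had a signal of 3650.1 units in GPHR F/F;Nes and 4282 units in GPHR F/F, a normalized log2 difference of 0.35 ± 0.20. Its dimmer probe had 25.8 units in GPHR F/F;Nes and 19.3 units in the control, a difference of 1.005 ± 0.24. Both probes were higher in GPHR F/F;Nes after scaling, but they disagreed in size, with an SD of 0.46 between them. The gene mean was 0.68 ± 0.16, the highest of the 9 genes, and 84.9% of all measured genes lay below it. It stood at 0.35 when only the brightest probe was used and at -0.27 after scaling to spike-in RNAs.

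Fezf2, a zinc finger factor that specifies neurons projecting to the brain stem and spinal cord, had a signal of 249.95 units in GPHR F/F;Nes and 288 units in GPHR F/F. Its normalized difference was 0.38 ± 0.20, a size of 1.84 times its error, and it was below 0 only after scaling to spike-in RNAs among the 12 alternative ways of processing. Bcl11b, which encodes the zinc finger factor CTIP2 of the same deep-layer neurons and is also expressed in striatal projection neurons, gave 2 opposite readings. Its brighter probe had 431 units in GPHR F/F;Nes and 827 units in the control (-0.36 ± 0.20). Its dimmer probe had 99.8 units in GPHR F/F;Nes and 123 units in the control (0.28 ± 0.21). The brighter probe was designed on a RefSeq mRNA and the dimmer one on an Ensembl transcript, and the mean of -0.04 ± 0.14 averages over their disagreement.

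Cux2, a homeodomain factor of upper-layer neurons that project within the cortex, was measured by 3 probes. They had 208, 163 and 28.3 units in GPHR F/F;Nes, against 384, 258 and 43.3 units in GPHR F/F. Their normalized differences were -0.30 ± 0.20, -0.08 ± 0.20 and -0.03 ± 0.22 in the same order. All 3 lay below 0, and the gene mean of -0.14 ± 0.12 was 1.15 times its error.

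Neurod2 and Neurod6 encode basic helix-loop-helix factors that are switched on as cortical excitatory neurons differentiate and stay on in mature ones. Neurod2 had a signal of 1114 units in GPHR F/F;Nes and 1641 units in GPHR F/F, a normalized difference of 0.02 ± 0.20. Neurod6 had 909.98 units in GPHR F/F;Nes and 1393 units in GPHR F/F, a normalized difference of -0.03 ± 0.20. In GPHR F/F;Nes both raw signals were lower by about the ratio of the 75th percentiles of the arrays, so that little remained after scaling. Of the 6 factors, Neurod2, Neurod6 and the mean of Bcl11b differed by less than their own scanner error. Each of the 2 Bcl11b probes exceeded its error, on opposite sides of 0. By gene, all factors but Tbr1 lay within the interquartile range of all measured genes, -0.19 to 0.43.

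**Figure D1:**
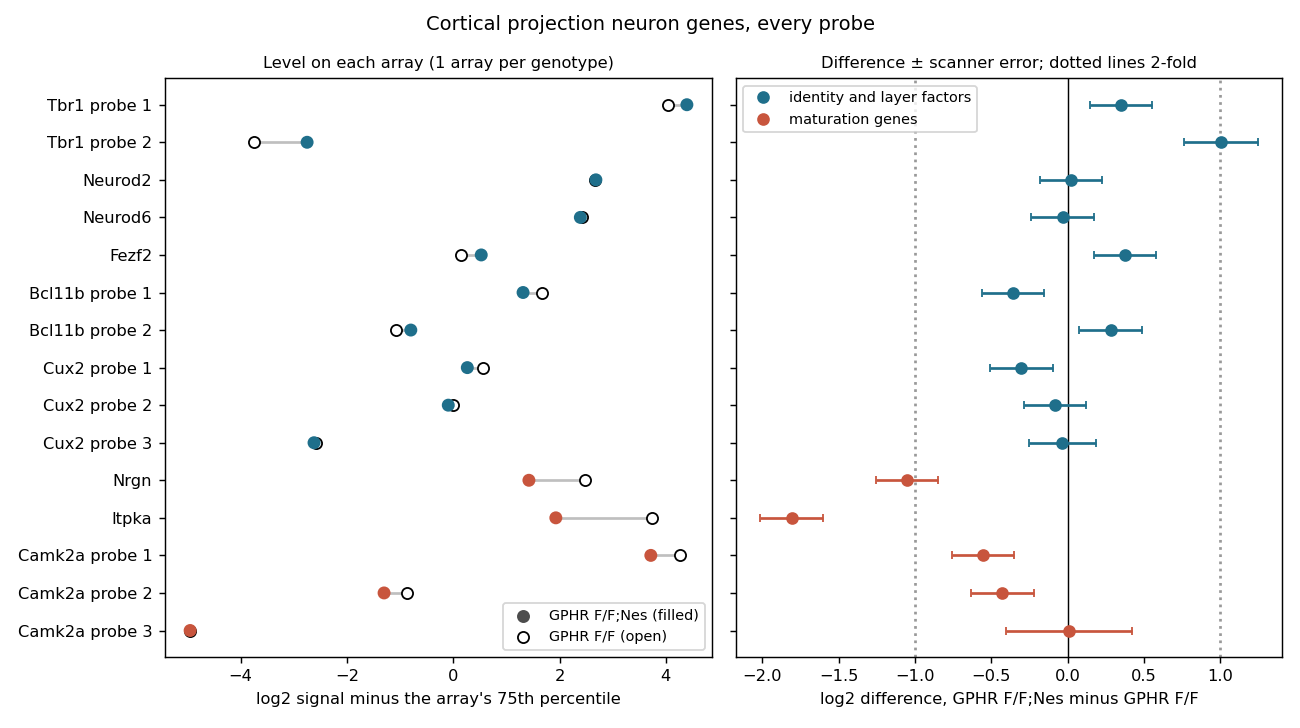
Left, log2 signal minus the array's 75th percentile for each of the 15 member probes in GPHR F/F;Nes (filled) and GPHR F/F (open), 1 array each. Right, the log2 difference with the scanner error as bars and dotted lines at 2-fold. Probes of 1 gene are numbered from the brightest. The Nrgn and Itpka probes lie to the left of the lower dotted line, and the dimmer Tbr1 probe lies at the upper one.

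Itpka had the largest difference of the 9 genes. It encodes inositol trisphosphate 3-kinase A, which phosphorylates the calcium-releasing messenger inositol trisphosphate and bundles actin in dendritic spines. Its signal was 661 units in GPHR F/F;Nes and 3464 units in GPHR F/F. After scaling, the difference was -1.81 ± 0.20, or 3.50-fold lower in GPHR F/F;Nes. Of all measured genes, 33 (0.138%) had a more negative difference. Itpka was at least 2-fold lower in all 12 alternative ways of processing, at -1.50 to -2.76.

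Nrgn encodes neurogranin, a small postsynaptic protein that binds calmodulin when calcium is low. Its signal was 465 units in GPHR F/F;Nes and 1443 units in GPHR F/F. The normalized difference was -1.05 ± 0.20, or 2.07-fold lower, and 276 genes (1.15%) had a more negative one. This value sits close to the 2-fold threshold. It was on the other side of it after quantile normalization (-0.99), after loess correction (-0.94), after normexp background correction (-0.90) and when set against pan-neuronal genes (-0.74).

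Camk2a encodes the alpha subunit of calcium/calmodulin-dependent protein kinase II, an abundant kinase of excitatory synapses in the forebrain, and lies on chromosome 18. Its brightest probe had 2281 units in GPHR F/F;Nes and 5012 units in GPHR F/F, a difference of -0.55 ± 0.20. Its middle probe had 70.4 units in GPHR F/F;Nes and 142 units in the control, a difference of -0.43 ± 0.21. The dimmest, designed on an Ensembl transcript, had 5.62 units in GPHR F/F;Nes and 8.37 units in the control, near the limit of detection, and differed by 0.01 ± 0.41. The differences of both brighter probes exceeded their error, and the gene mean of -0.32 ± 0.17 is pulled toward 0 by the dimmest one. With the brightest probe alone Camk2a stood at -0.55.

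**Figure D2:**
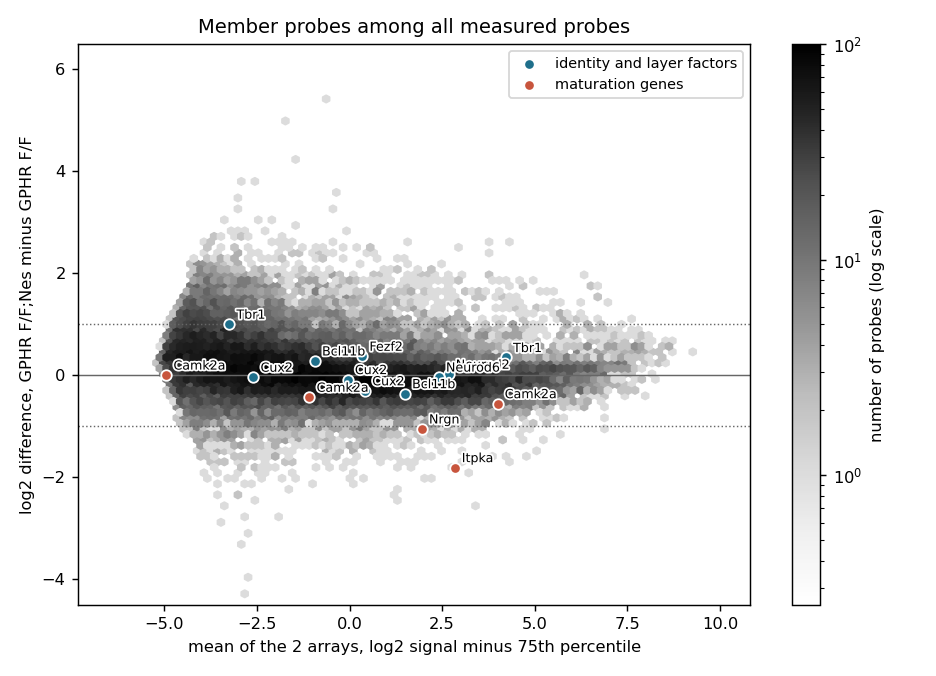
Log2 difference (GPHR F/F;Nes minus control) against the mean level of each probe, with all 36717 measured probes as shaded bins and the 15 member probes as points. Dotted lines mark 2-fold. Itpka and Nrgn lie on the lower edge of the cloud at their level, whereas the brighter probes of the factors lie within it and the dimmer Tbr1 probe lies where dim probes spread upward.

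Set side by side, the medians of the maturation genes and of the factors differed by -1.05, and the highest maturation gene (Camk2a, -0.32) lay below the lowest factor (Cux2, -0.14). This gap of 0.19 is small beside the scanner errors of both genes (0.17 and 0.12). By single probes the groups overlapped, since the dimmest Camk2a probe (0.01) lay above the brighter Bcl11b probe (-0.36) and all 3 Cux2 probes. The order by gene held in 12 of 12 alternative ways of processing, although the choice of members favours it. Several of these could not change it. Median, spike-in and pan-neuronal scaling, the deposited table and keeping outlier spots shift all 9 genes alike. Dropping the filter on dim probes left the member values as they were. Scaling moved both groups together. After scaling to spike-in RNAs all 9 genes were below 0, with a median of -0.96 for the factors and -2.002 for the maturation genes. Set against the median of 24 pan-neuronal genes, which was itself -0.31, the 6 factors were all above 0 (median 0.30), and Nrgn and Itpka stayed below 0 at -0.74 and -1.50. Camk2a was then at -0.02.

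**Figure D3:**
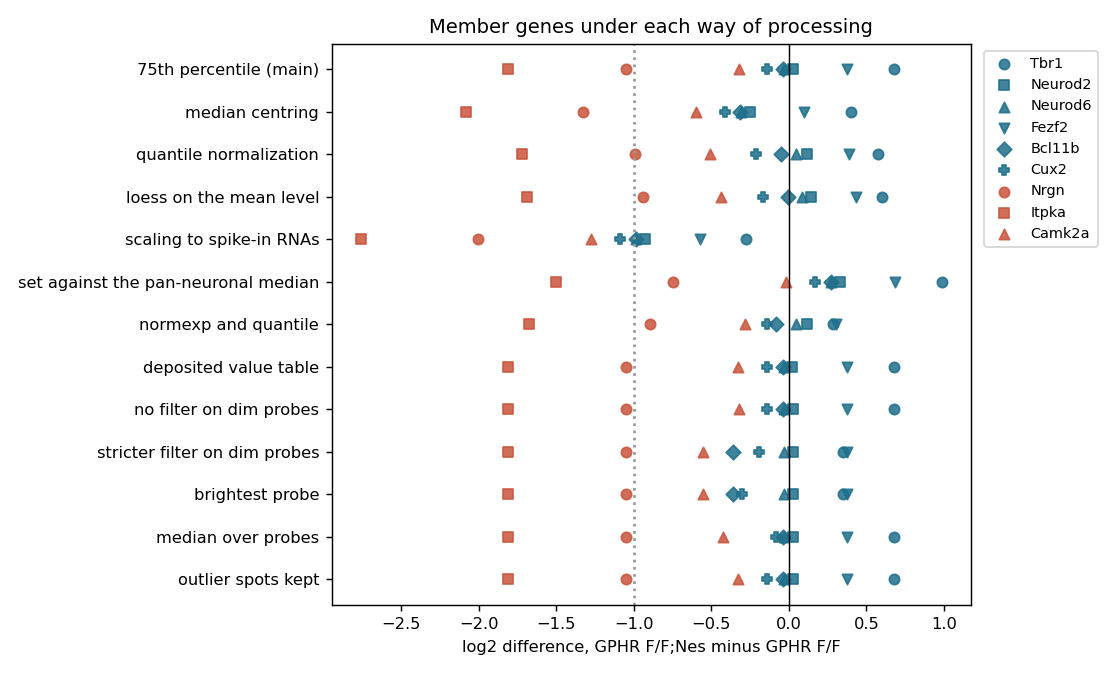
Log2 difference (GPHR F/F;Nes minus control) of the 9 member genes under the main scaling to the 75th percentile and under 12 alternatives, 1 row each. Factors are blue and maturation genes red, with the 2-fold line dotted. Red points lie to the left of all blue points in every row, whereas the position of the blue points relative to 0 moves with the scaling.

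Other transcription factors of cortical neurons were mixed. Of 33 listed, 32 were measured, with 15 below 0, 17 above 0 and a median of 0.02, against a median of 0.07 over all genes. This median was between -0.07 and -0.26 after loess, normexp, quantile or median scaling, -0.93 with spike-in scaling and 0.33 when set against pan-neuronal genes. At least 2-fold lower in GPHR F/F;Nes were 3 of the 32. Pou3f1, a POU factor of deep-layer projection neurons, was at -1.40 ± 0.20 (149.7 units in GPHR F/F;Nes, 589.7 units in GPHR F/F). Neurod1, a relative of Neurod2 and Neurod6 that is also strong in cerebellar granule cells, was at -1.39 ± 0.20 (131 units in GPHR F/F;Nes, 514 units in the control). Bhlhe22, which helps to assign cortical areas and long-range axons, was at -1.33 ± 0.20 (355 units in GPHR F/F;Nes, 1332 units in the control). Only Fezf1, the close relative of Fezf2, was at least 2-fold higher (1.41 ± 0.19), and its brightest probe was dim, with 24.6 units in GPHR F/F;Nes and 15.98 units in the control. Normexp processing adds an offset of 50 units to every signal, which draws the differences of dim probes toward 0. Fezf1, whose brightest probe lay below that offset on both arrays, was then at 0.27, below 2-fold. Because of the offset, that value cannot tell whether the Fezf1 difference holds. Pou3f1, Neurod1 and Bhlhe22 stayed past 2-fold. Thus 3 factors that were not members passed the fold that none of the member factors passed.

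Close relatives of the member factors otherwise differed by less. Cux1, the upper-layer relative of Cux2, was at -0.15 ± 0.09 over 6 probes, and Bcl11a, the relative of Bcl11b, was at -0.26 ± 0.10 over 4 probes. Eomes, the T-box factor of cortical intermediate progenitors and a relative of Tbr1, was at 0.56 ± 0.21 on 1 probe, with 57.3 units in GPHR F/F;Nes and 58.1 units in the control.

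Cortical layer markers that are not transcription factors included more 2-fold differences. All 32 listed were measured, and 7 were at least 2-fold lower in GPHR F/F;Nes, 1 at least 2-fold higher and 24 in between, with a median of -0.16 (0.15 when set against pan-neuronal genes). The secreted protein Tafa1 stood at -1.84 ± 0.12 with 3 probes between -2.39 and -1.10, and its relative Tafa2 at -1.25 ± 0.20. The thyroid hormone-binding protein Crym, a deep-layer marker, was at -1.82 ± 0.20, with 286 units in GPHR F/F;Nes and 1507 units in GPHR F/F. Rspo1 (-1.24 ± 0.21), a secreted activator of Wnt signalling, Plcxd2 (-1.24 ± 0.20), Parm1 (-1.20 ± 0.20) and the calmodulin-binding peptide Pcp4 (-1.14 ± 0.20) completed the 7. Of the 7, all but Rspo1 (-0.82) also passed 2-fold after normexp processing. Rspo1 had 46.8 units in GPHR F/F;Nes, below the normexp offset, so its smaller value there does not decide whether its difference holds. Ccn2, a secreted matrix protein found in the deepest cortical layer and also in blood vessels and meninges, was higher by 1.04 ± 0.20.

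The pathway in which the 3 maturation genes act lay on the lower side. Of 29 other genes of calcium-calmodulin signalling and inositol trisphosphate, 27 were below 0, against 43% of all measured genes, with a median of -0.39. The median stayed below 0 under each scaling tried, at -0.09 when set against pan-neuronal genes. This direction was not particular to the pathway, since all 24 pan-neuronal genes were below 0 as well (median -0.31). Gap43 is also in that list, and Pcp4 is also among the layer markers above. Only 2 of the 29 were at least 2-fold lower and none was 2-fold higher. The one that also passed after normexp processing was Pcp4, at 2981 units in GPHR F/F;Nes and 9829 units in GPHR F/F. Hpca, which encodes the calcium sensor hippocalcin, was at -0.85. The other CaMKII subunits were at -0.53 ± 0.11 for Camk2b, -0.73 ± 0.10 for Camk2d and -0.35 ± 0.20 for Camk2g. The 4 Camk2d probes ranged from -1.11 to 0.06. Gap43, a growth cone protein with the same kind of calmodulin-binding motif as neurogranin, was at -0.23 ± 0.20. Itpka's relatives were the 2 genes above 0, with Itpkb at 0.27 ± 0.16 (-0.07 after normexp processing) and Itpkc at 0.46 ± 0.15. The brightest Itpkb probe, however, was lower in raw signal, with 1042 units in GPHR F/F;Nes and 2104 units in the control, and its 3 probes ranged from -0.43 to 0.68.

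Genes of the excitatory postsynapse and the dendritic spine gave a similar picture. Of 34 genes, 31 were below 0, 3 were at least 2-fold lower and none was 2-fold higher, with a median of -0.41 (-0.10 when set against pan-neuronal genes). The 3 were Cpne6, a calcium-dependent membrane-binding protein of spines (-1.13 ± 0.20), Rgs14, a regulator of G protein signalling (-1.08 ± 0.20), and Ddn, which encodes dendrin (-1.05 ± 0.20). Ddn had 629.7 units in GPHR F/F;Nes and 1951 units in GPHR F/F. Like Nrgn, all 3 are close to the 2-fold line, and none of the 3 passed it after normexp processing (-0.99, -0.88 and -0.94 in the order named).

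**Figure D4:**
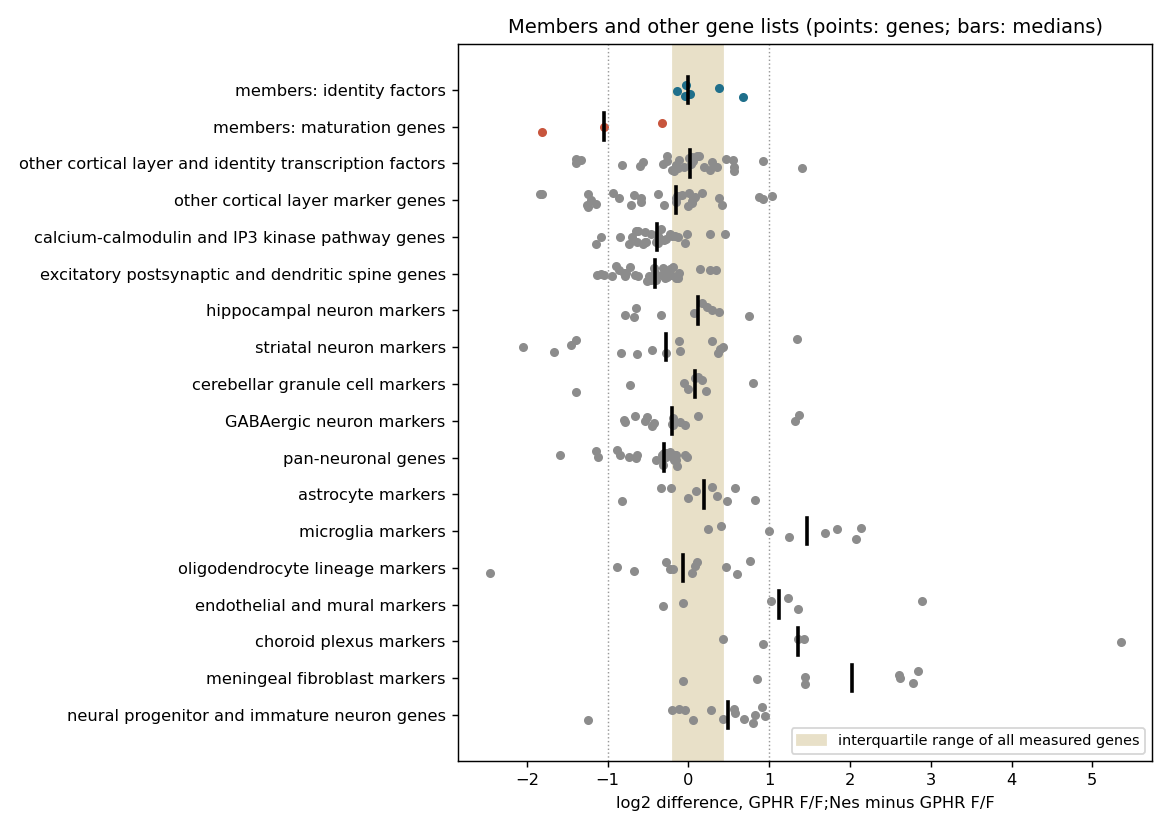
Log2 difference (GPHR F/F;Nes minus control) of each measured gene, by list, with black bars at the list medians, dotted lines at 2-fold and the interquartile range of all 23918 measured genes shaded. The calcium-calmodulin, postsynaptic and pan-neuronal lists lie mostly to the left of 0, and the microglia, endothelial, choroid plexus and meningeal lists mostly to the right.

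Several members are also expressed outside the cortex, so markers of other neurons are given beside them. All 24 pan-neuronal genes were below 0 (median -0.31), and the neurofilament genes Nefm (-1.60 ± 0.14), Nefl (-1.14 ± 0.14) and Nefh (-1.12 ± 0.15) were at least 2-fold lower, with Nefh at -0.82 after normexp processing. Of 15 striatal markers, 4 were at least 2-fold lower and 1 higher (median -0.28, and 0.03 when set against pan-neuronal genes), of which 3 and 0 also passed after normexp processing. The striatal list was led by Penk (-2.05 ± 0.17) and Adora2a (-1.67 ± 0.21). Of 15 GABAergic markers, 12 were below 0 and 3 above, with a median of -0.21 (0.10 when set against pan-neuronal genes). None of the 15 was 2-fold lower and 2 were 2-fold higher, Pvalb (1.37 ± 0.21) and Lhx6 (1.32 ± 0.20). Pvalb was dim, at 127 units in GPHR F/F;Nes and 73.6 units in the control. It was at 0.80 after normexp processing, whose offset draws dim differences toward 0, whereas Lhx6 stayed at 1.32.

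Among non-neuronal cells, the markers of some types differed with the genotype and those of astrocytes and oligodendrocytes showed no common direction. At least 2-fold higher in GPHR F/F;Nes were 5 of 8 measured microglia markers, 4 of 6 endothelial and mural markers, 3 of 5 choroid plexus markers and 6 of 8 meningeal markers, and none of these was 2-fold lower. Many of these probes were dim, and the normexp offset of 50 units draws such differences toward 0. After normexp processing, 0 of the 5 microglia genes and 2 of the 4 endothelial and mural genes were still at least 2-fold higher. So were 1 of the 3 choroid plexus genes and 4 of the 6 meningeal genes. For the dim genes the offset itself lowers the value, so these counts do not decide whether their differences hold. The microglia median was 1.46 in the main setting and 0.46 after normexp processing, and the meningeal median 2.03 and 1.09 in the same order. With the stricter filter on dim probes these medians were 0.24 and 0.68. That filter drops genes that are dim on either array, so the medians then rest on fewer genes. The microglia value is that of Csf1r, and the meningeal value lies midway between Dcn (-0.07) and Ptgds (1.44). Neither value with the stricter filter describes its whole list. Of 10 astrocyte markers none differed 2-fold (median 0.19), and of 12 oligodendrocyte markers only Gpr17, a gene of oligodendrocyte precursors, was 2-fold lower (-2.46). The summed signals of the first 4 lists, in multiples of each array's 75th percentile, were 3.19 in GPHR F/F;Nes and 1.79 in the control for microglia, 8.27 and 4.13 for endothelial and mural cells, 5.86 and 0.803 for choroid plexus, and 13.6 and 8.50 for meninges, in the same order of genotypes. The sum over the 6 factors was 16.7 in GPHR F/F;Nes and 15.8 in the control, whereas that over the 3 maturation genes was 7.05 in GPHR F/F;Nes and 19.6 in the control. In all these sums a gene enters at the mean log2 level of its probes, so dim probes lower it. Bright genes weigh most, so a sum need not describe its whole list. The endothelial gene Kdr had 1000 units in GPHR F/F;Nes and 639 units in the control, and the choroid plexus gene Ttr 716 and 26.2 units. The meningeal gene Dcn, which differed by only -0.07, had 1071 units in GPHR F/F;Nes and 1682 units in the control. Camk2a entered at -0.84 in GPHR F/F;Nes and -0.52 in the control, although its brightest probe was at 3.72 and 4.27. The sum over the maturation genes therefore rests mostly on Itpka and Nrgn. Tbr1 likewise entered at 0.82 in GPHR F/F;Nes and 0.15 in the control, although its brightest probe was at 4.40 and 4.04. The sum over the factors therefore rests mostly on Neurod2 and Neurod6. The part of the non-neuronal cells in the member values was not tested.

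The stretch before the start of transcription is shown for Itpka and Nrgn, which were both lower, and for Tbr1 and Neurod2, which were not. Each is the 250 bases before the annotated start, from RefSeq on GRCm38.p6, written along the gene's strand. Capitals mark the GC box GGGCGG, the E-box CAGATG that NeuroD-type factors can bind and the core TGACG of cyclic AMP response elements, searched on both strands, and none of the marked matches overlap.
Itpka, chr2:119742087-119742336, plus strand: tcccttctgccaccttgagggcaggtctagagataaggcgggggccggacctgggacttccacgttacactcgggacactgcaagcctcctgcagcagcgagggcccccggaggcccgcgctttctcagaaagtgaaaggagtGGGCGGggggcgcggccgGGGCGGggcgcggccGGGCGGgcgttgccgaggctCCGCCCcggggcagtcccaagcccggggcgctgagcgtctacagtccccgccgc
Nrgn, chr9:37552746-37552995, minus strand: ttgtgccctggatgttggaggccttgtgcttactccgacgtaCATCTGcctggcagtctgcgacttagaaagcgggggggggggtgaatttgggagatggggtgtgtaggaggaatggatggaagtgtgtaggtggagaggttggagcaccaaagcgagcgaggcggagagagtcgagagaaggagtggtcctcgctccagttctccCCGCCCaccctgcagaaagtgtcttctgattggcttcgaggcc
Tbr1, chr2:61804203-61804452, plus strand: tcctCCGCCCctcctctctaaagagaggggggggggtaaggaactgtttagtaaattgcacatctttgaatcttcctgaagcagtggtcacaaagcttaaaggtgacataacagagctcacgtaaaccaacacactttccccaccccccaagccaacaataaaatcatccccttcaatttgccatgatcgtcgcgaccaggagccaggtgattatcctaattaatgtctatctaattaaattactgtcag
Neurod2, chr11:98329646-98329895, minus strand: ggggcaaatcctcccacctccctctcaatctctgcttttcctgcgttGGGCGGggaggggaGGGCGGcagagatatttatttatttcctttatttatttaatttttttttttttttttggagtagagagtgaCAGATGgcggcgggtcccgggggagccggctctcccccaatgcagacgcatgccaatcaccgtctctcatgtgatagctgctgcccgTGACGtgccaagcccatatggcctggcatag
The Itpka stretch was rich in GC (72.8%, above 94.0% of 32851 mouse promoters) and held 4 GC boxes. Nrgn had a GC content of 58.4% with 1 GC box and 1 E-box, Neurod2 52.8% with 2 GC boxes, 1 E-box and 1 TGACG, and Tbr1 45.2% with 1 GC box. RefSeq windows were matched for 8 members, 9 windows in all because Cux2 has 2 starts, and Camk2a is named only. Of the 9 windows, 5 held the GC box (32.7% of all promoters), 3 the E-box (14.4%), 1 TGACG (17.8%), 1 TATAAA (12.4%) and 0 the T-box motif AGGTGTGA (1.12%). The letters found did not divide Itpka and Nrgn from the factors: GC boxes were in windows of both groups, and the E-box was in those of Nrgn, Neurod2 and Cux2.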

How the data were processed

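Total brain RNA of 1 GPHR F/F;Nes sample and 1 GPHR F/F control was labelled with Cy3 after TRIzol extraction, per the labels' protocols. Scans were read with Agilent Feature Extraction 11.5.1.1, per the submitters' processing notes. Each deposited spot intensity used is the processed signal, on a linear scale after spatial and multiplicative detrending, per the file headers, which show local background correction switched off. The other deposited values used are flags per spot. The deposited value table is on the log2 scale and differed from log2 of the spot signal by a fixed offset on each array (99.9% of probes to within 0.001). Column medians were -2.92 for GPHR F/F;Nes and -3.19 for GPHR F/F, and the sources used here do not give how the authors set the offset. Both arrays shared 1 slide and 1 scan.

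Of 62976 spots per array, 59305 were not controls. Outlier spots (51 on each array) were left out, log2 values of repeated spots were averaged per probe, and the 75th percentile over the 56603 probes of the array was subtracted. The well-above-background flag was set for 69.2% of them in GPHR F/F;Nes and 67.0% in GPHR F/F, and no spot was saturated. A gene is the mean of its probes well above background on both arrays. Probe accessions matched RefSeq (GRCm38.p6, names only) for 32993 probes, and older symbols were updated where they pointed to 1 gene. The number of arrays, 1 per genotype, limits the precision.

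Members and gene lists were chosen with earlier results of these data known. Named besides the 9 members were Gpr89, sex-linked genes, relatives of members, genes past 2-fold in the 4 cortical and synaptic lists, and up to 3 leading genes of the other lists. Some items this rule covers are not reported here. Alternatives were median, quantile, loess (span 0.3), spike-in (8 Agilent probes) and pan-neuronal scaling, normexp (offset 50) with quantile normalization, the deposited table, no or stricter filtering of dim probes, the brightest or median probe, outlier spots kept, and thresholds of 1.5-fold and 3-fold. Python 3.11.15, numpy 2.4.6, pandas 2.3.3, R 4.3.3 and limma 3.58.1 were used. The calculation was tested on simulated arrays with known changes.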

Additional observations from a re-analysis of the deposited data

How the results depend on the processing

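No paired analysis was possible because each genotype had 1 array. The main count of 2 members at least 2-fold lower was 1 (Itpka alone) after quantile, loess or normexp processing, against the pan-neuronal median, and at a 3-fold threshold, and 4 after spike-in scaling (Cux2 and Camk2a added). The median of the factors was -0.28 with median centring, -0.96 with spike-in scaling and 0.30 against the pan-neuronal median, and that of the maturation genes -1.33, -2.002 and -0.74 in the same order. The difference between both medians was -1.07 after quantile, -1.06 after loess and -0.98 after normexp processing. It was -1.05 in the other alternatives. Those shift all members alike, leave their probes unchanged or alter only genes with several probes, whereas both medians rest on genes with 1 probe. Camk2a ranged from -1.28 to -0.02, Tbr1 from -0.27 to 0.98, Fezf2 from -0.58 to 0.68 and Bcl11b from -0.99 to 0.27, and the sign of each of the 6 factors depended on the scaling. Genes at least 2-fold lower numbered 328 in the main setting, 807 with median centring, 563 with quantile, 466 with loess, 9145 with spike-in scaling, 124 against the pan-neuronal median, 89 with normexp, 782 without a filter and 155 with a stricter one. Of the genes past 2-fold, 85.3% were higher in the main setting, 57.1% with median centring, 68.6% with quantile, 74.9% with loess, 1.99% with spike-in scaling, 96.6% against the pan-neuronal median and 70.6% with the stricter filter. The dimmest probe of Camk2a and the dimmer probe of Tbr1 are limited by their signal over background.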

Other observations

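Genes of neural progenitors and immature neurons were mixed. Of 14, 10 were above 0, against 57% of all measured genes, and none was 2-fold higher, with a median of 0.49 (0.19 after normexp processing, -0.46 with spike-in scaling). The progenitor gene Nes, which encodes the intermediate filament nestin, was at 0.91 ± 0.20, and the Notch target Hes5 was lower (-1.24 ± 0.16, and -0.77 after normexp processing). Genes of immature neurons did not share a direction, with Igfbpl1 at 0.95, Tubb2b at 0.28, Sox11 at 0.06, Stmn1 at -0.04, Sox4 at -0.12 and Dcx at -0.20. All but Igfbpl1 of these 6 were added after their values were seen, to show the whole group.

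Hippocampal neurons also express several of the members. Of 13 hippocampal markers, 10 were measured on both arrays and none differed 2-fold, with Calb1 at -0.78 ± 0.12, Zbtb20 at 0.75 ± 0.12 and Wfs1 at -0.67 ± 0.20. The other 3 had signal well above background in the control alone. Of 9 measured cerebellar granule cell markers, Neurod1 alone was at least 2-fold lower. Pax6 was at 0.79 ± 0.12 and Slc17a6 at -0.72 ± 0.20.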
